A study of Homo sapiens with 6 samples.

Results

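ZNF symbols are given to zinc finger genes and their pseudogenes, and 33 genes with such a symbol, 29 protein-coding and 4 pseudogenes, were among the 2778 features of a count table for A375 cells, an established human melanoma line. The members were the rows whose gene name is ZNF followed by a number and at most 1 further letter, a rule that reads names only. The table compared wildtype cells (WT, 3 libraries) with cells labelled as CYGB-overexpressing (CYGB-OE, 3 libraries), CYGB being the gene of the haem protein cytoglobin. Cells of both groups were untreated and grown in the same serum-supplemented medium, and no label gives an empty-vector control or says whether the overexpressing cells were 1 clone. The labels do not state whether replicate libraries stem from separate cultures, and the p-values therefore reflect spread among libraries that may be technical only.

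Zinc finger proteins of this class fold short loops around a zinc ion held by cysteines and histidines, and each finger can contact a few bases of DNA. Arrays of such fingers read longer DNA sites. Many of the genes carry a KRAB domain, which recruits the co-repressor TRIM28 and through it enzymes that write repressive chromatin, often at transposable elements. The KRAB genes arose by tandem duplication and lie in large clusters, most of them on chromosome 19. They are known for low transcript levels and for sequence shared with their neighbours.

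The table was a selection of features that already differed between these libraries. Between higher and lower features an empty band of 1.99 log2 units separated the ratios of group means, and of 2468 features tested 99.8% passed the threshold (edgeR quasi-likelihood test, Benjamini-Hochberg adjusted p below 0.05 over all features tested). A call on a ZNF gene is therefore a description of a selected row and not independent evidence of a difference. The remaining annotated ZNF genes were not analysed here. The library columns summed to 1533260 to 2801576 counts, which are totals over the selected features and not sequencing depths. ZNF genes held 0.34% to 0.37% of each total. CYGB, the check of the labels, had a normalized count of 37.6 ± 1.56 in WT and 23680 ± 460 in CYGB-OE (SD, n = 3 each). Of 8 melanocyte markers only TYRP1 and DCT were in the table, with TYRP1 at 24.98 ± 10.5 in WT and 4.26 ± 3.89 in CYGB-OE. DCT had raw counts of 2, 13 and 15 in WT and 0 in all CYGB-OE libraries, and was not tested. Of 4 keratinocyte markers only KRT14 was in the table, at 16.6 ± 3.52 in WT and 62.0 ± 8.90 in CYGB-OE. Of 5 fibroblast markers only COL1A2 was, at 1.76 ± 1.61 and 121 ± 74.2. None of 4 haematopoietic and 3 endothelial markers were listed. The part of these shifts in the ZNF values was not tested.

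RefSeq (GRCh38.p14) gave a promoter, here the 250 bases before and 50 bases after the gene start, for 21 of the 33 genes. Those of 2 abundant higher genes and of 2 lower genes, the most abundant and the one with the largest fall, are printed here because the sets differed in a CCAAT box. Capitals mark CCAAT or its reverse complement ATTGG.

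ZNF326 promoter, chr1:89994860-89995159, plus strand: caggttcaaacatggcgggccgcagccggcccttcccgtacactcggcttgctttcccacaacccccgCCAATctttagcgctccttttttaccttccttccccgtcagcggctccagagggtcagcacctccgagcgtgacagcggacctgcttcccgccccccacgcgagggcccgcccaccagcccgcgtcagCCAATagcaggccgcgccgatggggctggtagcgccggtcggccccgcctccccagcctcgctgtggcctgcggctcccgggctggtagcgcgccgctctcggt

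ZNF804A promoter, chr2:184598279-184598578, plus strand: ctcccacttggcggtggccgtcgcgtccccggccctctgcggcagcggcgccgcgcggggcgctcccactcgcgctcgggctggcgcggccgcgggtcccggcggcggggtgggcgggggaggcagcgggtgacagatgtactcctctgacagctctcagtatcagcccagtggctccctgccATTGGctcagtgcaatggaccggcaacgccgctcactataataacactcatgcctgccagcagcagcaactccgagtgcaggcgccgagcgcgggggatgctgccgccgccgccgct

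ZNF581 promoter, chr19:55643399-55643698, plus strand: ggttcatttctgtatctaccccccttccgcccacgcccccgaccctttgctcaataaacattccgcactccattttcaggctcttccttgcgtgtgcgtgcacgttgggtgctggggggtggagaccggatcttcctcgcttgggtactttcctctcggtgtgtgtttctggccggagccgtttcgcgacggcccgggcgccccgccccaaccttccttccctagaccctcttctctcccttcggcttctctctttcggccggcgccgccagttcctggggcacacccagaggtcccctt

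ZNF467 promoter, chr7:149773539-149773838, minus strand: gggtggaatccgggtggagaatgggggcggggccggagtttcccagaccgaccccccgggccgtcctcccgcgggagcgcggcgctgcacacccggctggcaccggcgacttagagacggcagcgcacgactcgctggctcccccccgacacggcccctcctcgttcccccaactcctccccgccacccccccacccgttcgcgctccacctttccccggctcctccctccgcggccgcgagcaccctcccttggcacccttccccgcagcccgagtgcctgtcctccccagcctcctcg

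The promoters of ZNF326 and ZNF804A held 2 and 1 CCAAT boxes, and those of ZNF581 and ZNF467 held 0. The printed higher genes were picked by level alone, and the lower ones by level and by fall. Of the other lower genes among the 8 most abundant per length, ZNF277 and ZNF775 held a CCAAT box and ZNF853 did not. The 4 printed promoters therefore show a sharper contrast than the sets. For each ZNF gene 1 promoter was used, the entry nearest the GENCODE start. The sets of all promoters and of those of table features held every entry of a gene. The higher genes ZNF831, ZNF488 and ZNF826P had no promoter entry and are not covered. A CCAAT box on either strand lay in all 5 promoters of higher genes that had an entry and in 6 of 16 of lower genes. It lay in 34.6% of all 35116 RefSeq promoters of the same length and in 32.9% of those of features in the table. This motif was singled out after the matches were seen, among 6 searched on both strands, and none of the 6 contains the letters of another. GGGCGG, the GC box, lay in 17 of the 21 (81.0%, against 45.0% of all promoters and 55.9% of those in the table), in 5 of 5 for higher and 12 of 16 for lower genes. CCGGAAG, an ETS-type site, lay in 4 (19%, against 10.3% of all and 5.5% of those in the table). TGACGTCA lay in 1, TATAAA in 1 and CACGTG in 0. The median GC content was 61.7%, against 58.7% over all promoters and 63.0% over those in the table. The median number of CpG dinucleotides was 23, against 14 and 18. The RefSeq starts of ZNF581, ZNF404 and ZNF385D lie 8190, 17421 and 622111 bases from the GENCODE starts, so their windows describe the RefSeq starts only. All 3 are lower genes without a CCAAT box. Among promoters within 1000 bases of the GENCODE start, a limit set after the matches were seen, 5 of 5 of higher and 6 of 13 of lower genes held one.

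Most ZNF genes in the table were lower in CYGB-OE. All 33 were tested, of which 8 were higher and 25 lower, or 75.8% lower. Over all tested features 28.9% were higher and 70.9% lower, so the split was near that of the table. The median log2 fold change was -1.29 for the ZNF genes and -1.29 for all features tested. The groups did not overlap in 31 of the 33, against 98.3% of all features. The split between directions rests on where the level between the groups is set. TMM scaling over the whole table raised the log2 fold changes by a median of 1.2. With it 8 ZNF genes were higher and 5 lower past the threshold, 15 of the lower ones stayed below 0 without a call and 5 turned positive. Under that scaling 28.9% of all tested features were higher and 19.4% lower. The 5 that stayed lower past the threshold were ZNF467, ZNF630, ZNF385C, ZNF404 and ZNF581. With the adjustment widened to all 58780 genes of the annotation, 6 ZNF genes were higher and 20 lower, where 19.4% of all tested features were higher and 54.3% lower.

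**Figure D1:**
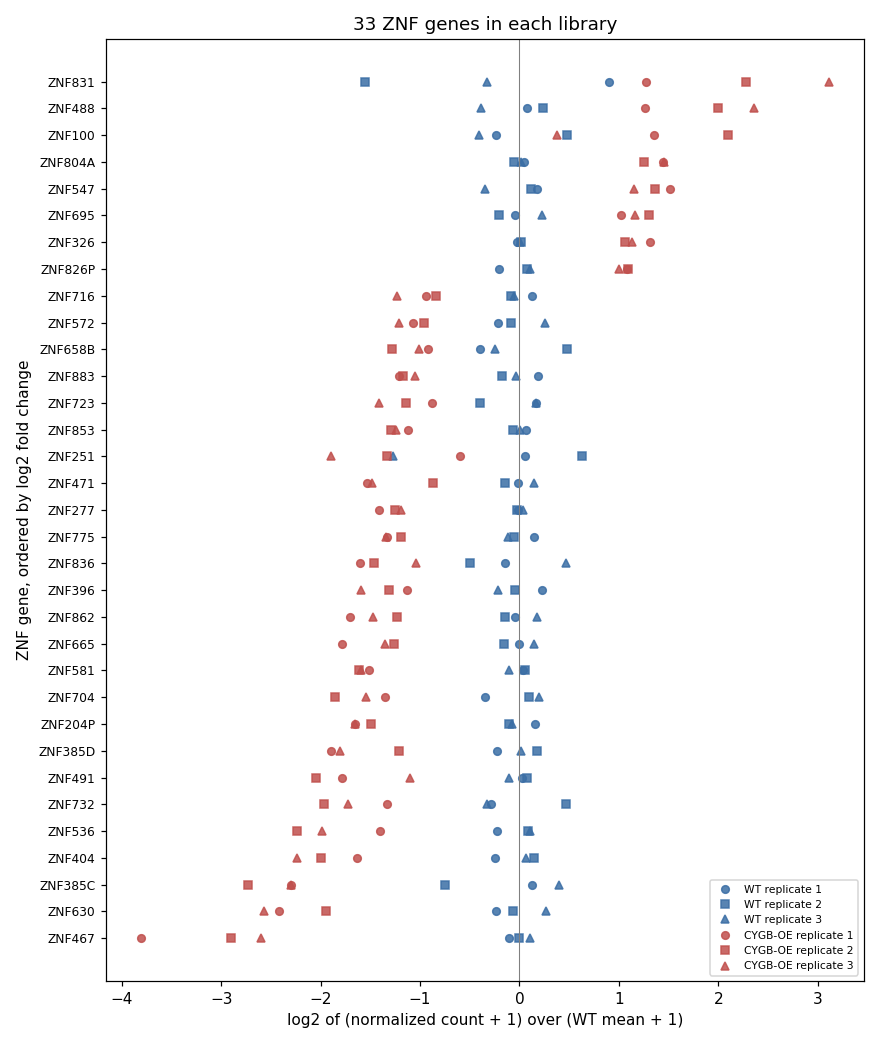
Each row is a ZNF gene, ordered by log2 fold change, and each point is 1 library, plotted as the log2 of its normalized count plus 1 over the WT mean plus 1 (blue WT, red CYGB-OE, symbols for replicates). The red and blue points are apart in 31 genes and mix in ZNF100 and ZNF251.

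Folds of the ZNF genes lay mostly close to the empty band. The median size of the log2 fold change was 1.39 for ZNF genes and 1.52 for all tested features. A log2 fold change beyond 2 in size was found in 4 of 33 ZNF genes (12.1%), ZNF467, ZNF630, ZNF385C and ZNF831, against 26.9% of all tested features. The lowest ZNF value was -3.03 and the highest 2.76, while the table ran from -10.04 to 9.30. These are descriptions of a selected table, with no test of the difference.

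**Figure D2:**
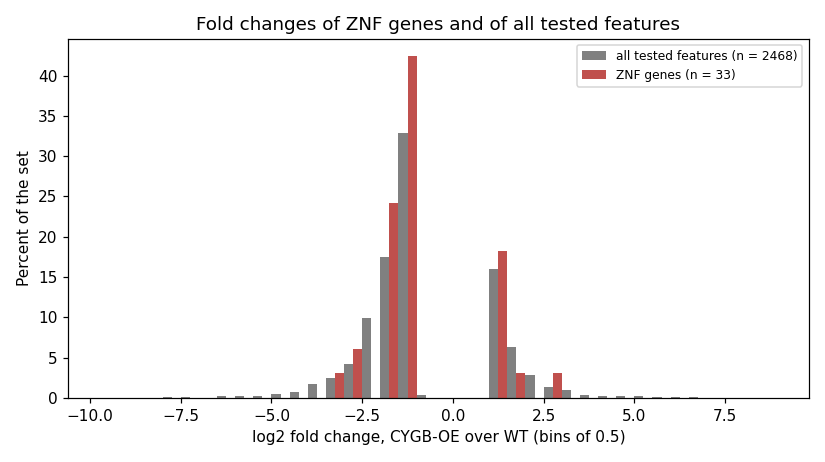
Percent of each set per bin of 0.5 in log2 fold change (CYGB-OE over WT), for all 2468 tested features in grey and the 33 ZNF genes in red. Both sets leave the middle empty, and the ZNF genes stay between -3.03 and 2.76.

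Among the 8 higher genes, ZNF326 and ZNF804A were the most abundant per length. ZNF326 encodes a subunit of the DBIRD complex, which links transcript elongation to splicing (GRCh38 chromosome 1, 89995112 to 90035531, plus strand). Its normalized counts were 825, 850 and 844 in the WT libraries, in the order of their replicate numbers (as in all lists of values here), and 2083, 1757 and 1845 in CYGB-OE. Every CYGB-OE library was above 2 times the highest WT library, and the log2 fold change was 1.17 (SE 0.11; edgeR adjusted p = 1.74e-05). ZNF804A, a gene known from association studies of schizophrenia (chromosome 2, 184598366 to 184939492, plus strand), stood at 293, 272 and 286 in WT and at 771, 679 and 780 in CYGB-OE. All CYGB-OE values were above 2 times the highest WT value, and the log2 fold change was 1.39 (SE 0.12; edgeR adjusted p = 1.35e-05). An antisense transcript overlaps ZNF804A, and 10.1% of its 50-base windows also occur in transcripts of other genes. No source used here gives the strand setting of the counting, so reads of such overlaps cannot be assigned.

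ZNF695 and the pseudogene ZNF826P were higher at moderate levels. ZNF695, whose product carries a KRAB pattern (chromosome 1, 246945547 to 247008093, minus strand), had normalized counts of 118, 105 and 142 in WT and 249, 302 and 275 in CYGB-OE. The groups were apart, and the log2 fold change was 1.18 (SE 0.17; edgeR adjusted p = 0.000241). Its read-through locus ZNF670-ZNF695 shares exons with it and also rose, from 6.49 ± 2.15 to 26.0 ± 2.60, so the counts of both loci are uncertain. ZNF826P (chromosome 19, 20340269 to 20424969, minus strand) stood at 193, 235 and 239 in WT and 473, 476 and 446 in CYGB-OE. Its log2 fold change was 1.06, the smallest among the higher genes (SE 0.14; edgeR adjusted p = 0.000113), and lay just outside the empty band, followed by that of ZNF326.

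The other 4 higher genes had low counts. ZNF488, known as a partner of OLIG2 in oligodendrocyte differentiation (chromosome 10, 47365496 to 47384273, minus strand), had normalized counts of 25.3, 28.5 and 18.1 in WT and 58.7, 98.3 and 127 in CYGB-OE. The groups were apart although the CYGB-OE libraries spread over more than 2-fold, and the log2 fold change was 1.97 (SE 0.34; edgeR adjusted p = 0.00054). ZNF547, with a KRAB pattern (chromosome 19, 57363477 to 57379565, plus strand), stood at 26.4, 25.3 and 18.1 in WT and 68.3, 61.4 and 52.7 in CYGB-OE. Its 3 CYGB-OE values were close together and about 2 times or more the WT values (log2 fold change 1.38, SE 0.26).

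ZNF831 had the largest positive log2 fold change of the ZNF genes, 2.76, and the largest standard error, 0.72. Its raw counts were 8, 1 and 3 in WT and 11, 22 and 49 in CYGB-OE (chromosome 20, 59123381 to 59259113, plus strand). It passed the filter on low counts only through CYGB-OE, and the groups were apart by a narrow margin, at 8.80 normalized counts in WT replicate 1 and 11.7 in CYGB-OE replicate 1. Without WT replicate 1 the log2 fold change was 3.81, without WT replicate 2 it was 2.17 and without CYGB-OE replicate 3 it was 2.16. ZNF100, with a KRAB pattern (chromosome 19, 21722766 to 21767628, minus strand), had normalized counts of 12.1, 20.6 and 10.6 in WT and 38.4, 64.8 and 19.1 in CYGB-OE. Its raw counts in WT, 11, 26 and 10, would not alone have passed the filter on low counts. The groups overlapped, since CYGB-OE replicate 3 lay below WT replicate 2, and the log2 fold change was 1.44 (SE 0.48; edgeR adjusted p = 0.016). Its edgeR adjusted p was 0.0543 without WT replicate 1, 0.0547 without WT replicate 3 and 0.0714 without CYGB-OE replicate 2, so each of these ended the call, and the last left a log2 fold change of 0.94. Neither ZNF831 nor ZNF100 passed with the adjustment over the whole annotation.

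ZNF467 showed the largest fall. The protein is known from its mouse counterpart for promoting fat cell over bone cell differentiation, and its gene lies on chromosome 7 (149764182 to 149773479, minus strand). The normalized counts were 332, 356 and 384 in WT and 24.5, 46.9 and 58.2 in CYGB-OE. The highest CYGB-OE library was far below the lowest WT library, and CYGB-OE replicate 1 was the lowest of all (log2 fold change -3.03, SE 0.28; edgeR adjusted p = 1.83e-05). Its promoter, printed above, held 33 CpG dinucleotides and a GC content of 75%.

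ZNF385C and ZNF385D, relatives of the p53 cofactor ZNF385A, were both lower. ZNF385D (chromosome 3, 21412222 to 22373321, minus strand) had normalized counts of 178, 236 and 212 in WT and 55.5, 89.3 and 59.1 in CYGB-OE. Its groups were well apart, and the log2 fold change was -1.62 (SE 0.23; edgeR adjusted p = 0.000182). ZNF385D-AS1, annotated over it on the opposite strand, fell as well, from 20.1 ± 6.01 to 4.36 ± 1.05, and with an unknown strand setting reads of this pair cannot be told apart. ZNF385C (chromosome 17, 42025576 to 42098479, minus strand) had raw counts of 35, 26 and 44 in WT and 6, 4 and 7 in CYGB-OE, with a log2 fold change of -2.56 (SE 0.43). C17orf113 overlaps it on the same strand and was lower too, from 236 ± 14.7 to 109 ± 10.7.

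ZNF536 and ZNF404 had the largest falls on chromosome 19. ZNF536, a repressor of neuronal differentiation (30228290 to 30713538, plus strand), stood at 97.9, 122 and 123 in WT and 42.7, 23.5 and 28.2 in CYGB-OE. The groups were apart and CYGB-OE replicate 1 was the highest of its group (log2 fold change -1.86, SE 0.26). ZNF404, with a KRAB pattern and 14 finger patterns (43872363 to 43901385, minus strand), stood at 108, 142 and 134 in WT and 40.5, 31.3 and 26.4 in CYGB-OE. Its log2 fold change was -1.97 (SE 0.24; edgeR adjusted p = 7.56e-05). ZNF491 (chromosome 19, 11797667 to 11809622, plus strand) had a log2 fold change of -1.62, from 54.0 ± 3.59 to 17.3 ± 6.45.

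ZNF630 and ZNF732, both with a KRAB pattern, were lower at low counts. ZNF630 (X chromosome, 47983356 to 48071658, minus strand) had raw counts of 12, 19 and 18 in WT and 2, 3 and 2 in CYGB-OE, with a log2 fold change of -2.66 (SE 0.42). ZNF732 (chromosome 4, 270675 to 305321, minus strand) had 15, 36 and 15 in WT and 7, 4 and 6 in CYGB-OE, with a log2 fold change of -1.82 (SE 0.40). ZNF630, ZNF732 and ZNF385C passed the filter on low counts only through WT, the group in which they were high. Of the 33 genes, 30 had at least 10 counts in every CYGB-OE library and 32 in every WT library.

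The ZNF genes at the highest level per length included 4 lower ones beside ZNF467. ZNF581 was the most abundant of the 33, at a mean of 812 normalized counts per kb of exon over the 6 libraries (chromosome 19, 55635459 to 55645622, plus strand). Its normalized counts were 2170, 2192 and 1969 in WT and 739, 691 and 697 in CYGB-OE. The groups were far apart, and the log2 fold change of -1.57 had the smallest standard error of the 33, 0.10 (edgeR adjusted p = 4.61e-06). ZNF580 overlaps ZNF581 on the same strand, and 18.4% of the 50-base windows of ZNF581 also occur in other genes.

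ZNF277, which binds the Polycomb protein BMI1 in mouse cells (chromosome 7, 112206588 to 112343096, plus strand), followed at 250 normalized counts per kb. It stood at 1411, 1402 and 1460 in WT and 533, 596 and 623 in CYGB-OE, with groups far apart (log2 fold change -1.29, SE 0.11). ZNF853 (chromosome 7, 6615617 to 6624290, plus strand), at 124 per kb, stood at 699, 640 and 672 in WT and 307, 273 and 284 in CYGB-OE (log2 fold change -1.22, SE 0.12). ZNF775 (chromosome 7, 150379335 to 150398631, plus strand), at 78.0 per kb, stood at 294, 255 and 244 in WT and 105, 115 and 104 in CYGB-OE (log2 fold change -1.30, SE 0.16). With TMM over the table the log2 fold changes of ZNF277, ZNF853 and ZNF775 were -0.09, -0.02 and -0.10. These lay near the median over all tested features under that scaling, -0.09. Their direction relative to the table's other features is therefore not set by these data.

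Higher and lower ZNF genes were found at all levels. The 8 most abundant per length, in descending order, were ZNF581, ZNF277, ZNF326, ZNF853, ZNF804A, ZNF775, ZNF467 and ZNF826P, of which 3 were higher and 5 lower. Neighbours in that order were close: ZNF326 and ZNF853 had means of 124.5 and 124.2 per kb over the 6 libraries. In WT alone ZNF853 stood at 174 per kb and ZNF326 at 76.5, and in CYGB-OE at 74.6 and 172.5, so the pair changed places. The median level of the 33 was 11.7 per kb, against 22.9 over the table's annotated features, and 12 of the 33 had a mean normalized count of 100 or more.

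**Figure D3:**
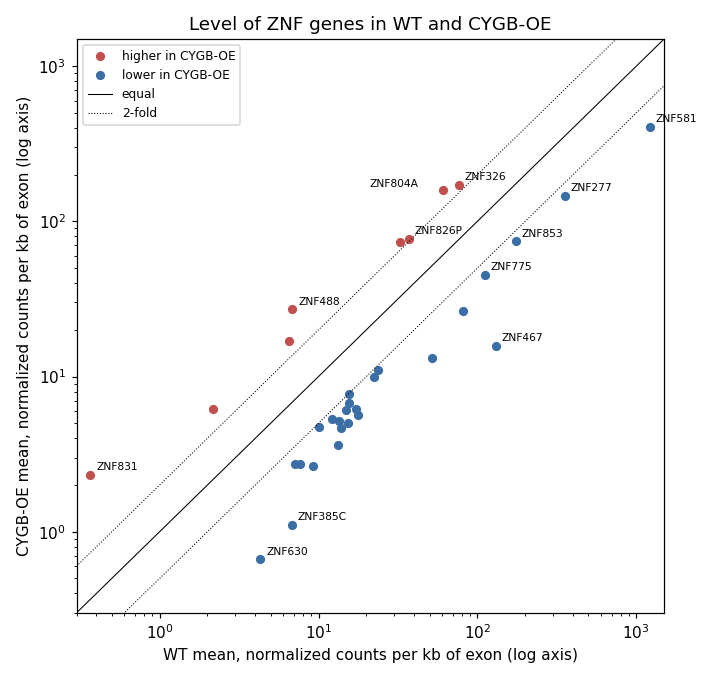
Mean normalized counts per kb of exon in WT and CYGB-OE for the 33 ZNF genes, on log axes, with a solid line of equal level and dotted lines of 2-fold difference. The 8 red genes lie above and the 25 blue genes below the line of equal level, from ZNF831 at 0.37 in WT to ZNF581 at 1216.

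Of the 25 lower genes, ZNF716 and ZNF572 lay nearest to the empty band, with log2 fold changes of -1.01 and -1.10. ZNF716 (chromosome 7, 57450177 to 57473546, plus strand) stood at 88.0, 75.9 and 77.6 in WT and 41.6, 44.7 and 33.6 in CYGB-OE. ZNF572 (chromosome 8, 124973298 to 124979389, plus strand) stood at 66.0, 72.7 and 92.5 in WT and 36.3, 39.1 and 32.7 in CYGB-OE. The groups were apart in both, yet under TMM over the table the values were 0.19 and 0.10. ZNF251 had the weakest call: its normalized counts were 62.7, 94.1 and 24.4 in WT and 39.5, 23.5 and 15.5 in CYGB-OE, so that WT replicate 3 lay among the CYGB-OE libraries. Its log2 fold change was -1.23, with an SE of 0.52 and an edgeR adjusted p = 0.0446. It did not pass without WT replicate 1 (edgeR adjusted p = 0.0889), nor without WT replicate 2 (edgeR adjusted p = 0.201), where the value was -0.74. The same held without CYGB-OE replicate 2 (edgeR adjusted p = 0.107) and without CYGB-OE replicate 3 (edgeR adjusted p = 0.131). The other 10 lower genes had log2 fold changes between -1.61 and -1.11, and their groups did not overlap.

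Among those 10, singled out after their values were seen, the processed pseudogene ZNF204P stood nearest to the abundant genes, at 53.6 normalized counts per kb (chromosome 6, 27357825 to 27360221, minus strand). It had 217, 180 and 184 normalized counts in WT and 60.8, 68.1 and 60.9 in CYGB-OE. The CYGB-OE libraries were close together (log2 fold change -1.61, SE 0.17). ZNF704 (chromosome 8, 80628451 to 80874781, minus strand) stood at 164, 222 and 239 in WT and 81.1, 57.0 and 70.9 in CYGB-OE (log2 fold change -1.58, SE 0.22). ZNF396 (chromosome 18, 35366697 to 35377337, minus strand) stood at 50.6, 41.9 and 37.2 in WT and 19.2, 16.8 and 13.6 in CYGB-OE (log2 fold change -1.39, SE 0.28). None of these 3 passed under TMM over the table, at -0.41, -0.38 and -0.19.

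CYGB-OE replicate 1 stood apart in the table as a whole, where CYGB-OE replicates 2 and 3 were 0.22 apart in median log2 units. Its median distance from CYGB-OE replicate 2, in log2 units, was 0.28 over ZNF genes and 0.47 over all features, and from CYGB-OE replicate 3 it was 0.22 and 0.48. Over ZNF genes CYGB-OE replicates 2 and 3 were 0.25 apart, and the WT libraries 0.18 to 0.24. CYGB-OE replicate 1 was above both other CYGB-OE libraries in 13 ZNF genes and below both in 12. Without it 8 ZNF genes were higher and 25 lower, the same counts as with it.

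Of the 33 ZNF genes in the table, 11 lay on chromosome 19. GENCODE release 29 names 558 genes by the same rule, of which 261 (46.8%) lie on chromosome 19, against 33.3% of those in the table, a difference that was not tested. As a share of each, 4.21% of the chromosome 19 genes and 7.41% of the 297 elsewhere were in the table. Over all gene types, 5.91% of the annotated ZNF genes were in the table, against 4.44% of all annotated genes. Among protein-coding genes the order was the opposite: 29 of 509 ZNF genes (5.70%) were in the table, against 1796 of 19951 (9%) of all protein-coding genes. No source used here gives the rule by which features entered the table, so these shares do not show how the remaining ZNF genes behaved.

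On chromosome 19, 3 ZNF genes were higher and 8 lower (72.7% lower), and elsewhere 5 were higher and 17 lower (77.3%). The other tested features of chromosome 19 were lower in 127 of 157 (80.9%). The median log2 fold changes were -1.37 on chromosome 19 and -1.26 elsewhere, and the difference was not tested. Log2 fold changes on chromosome 19 ran from -1.97 to 1.44, and none of its 11 genes passed 2 in size, against 4 of 22 elsewhere. With TMM over the table, 2 of the chromosome 19 genes, ZNF404 and ZNF581, were lower past the threshold.

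The chromosome 19 genes, all but ZNF536 among other annotated ZNF genes, had no other member of the table within 500 kb. Each had between 0 and 26 other annotated ZNF genes starting within 500 kb, with a median of 9, and none of those was in the table. ZNF547 had 26 such neighbours, ZNF836 had 20, ZNF404, ZNF491 and ZNF665 had 19 each, and ZNF536 had 0. Adjacent members were 856 to 13644 kb apart, with 6 to 42 other ZNF genes between them. No 2 members started within 500 kb of each other, so no run was formed on this chromosome. ZNF836 and ZNF665, which start 1005 kb apart with 23 ZNF genes between them, were both lower. ZNF836 stood at 51.7, 40.3 and 79.7 in WT and 18.1, 20.1 and 27.3 in CYGB-OE (log2 fold change -1.37, SE 0.34), and ZNF665 at 57.2, 51.4 and 63.8 in WT and 16, 23.5 and 21.8 in CYGB-OE (log2 fold change -1.48, SE 0.26). The WT libraries of ZNF836 spread over nearly 2-fold and those of ZNF665 did not. At 1000 kb ZNF581, ZNF471 and ZNF547 formed the 1 run, with ZNF581 and ZNF471 (log2 fold change -1.28) lower and ZNF547 higher. ZNF826P and ZNF100, in the pericentromeric part of the short arm, were higher, and ZNF723, the next member at 1110 kb from ZNF100, was lower at -1.18, but stood at 0.01 with TMM scaling of the whole table.

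**Figure D4:**
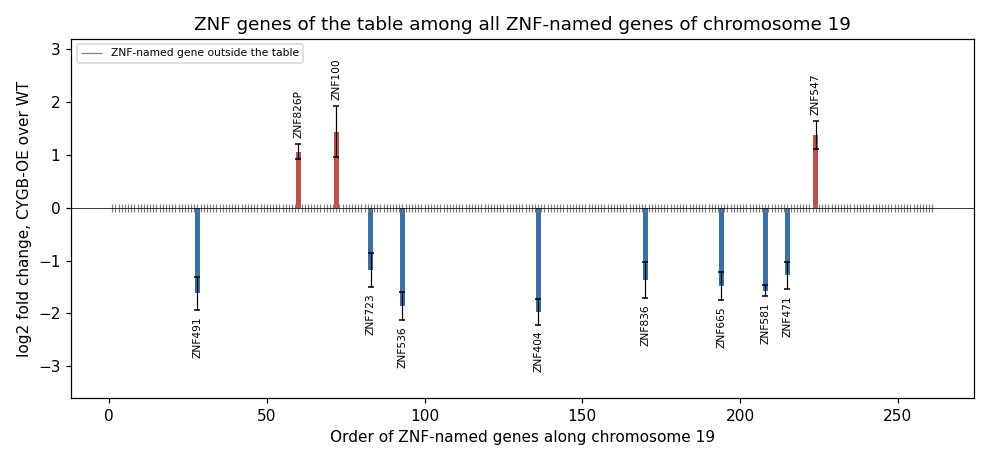
The 261 ZNF-named genes of chromosome 19 as ticks in their order along the chromosome, with bars for the log2 fold change of the 11 in the table (red higher, blue lower) and error bars of 1 standard error. The bars are spread along most of the order, and 6 to 42 ticks lie between neighbours.

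Chromosome 7 held 6 ZNF genes, and all 6 were lower. Over all tested features of chromosome 7, 79 of 108 (73.1%) were lower. ZNF467 and ZNF862 start 74185 bases apart, the only members within 500 kb of each other in the genome, and ZNF775 lies within 1000 kb of ZNF862. SSPO lies between ZNF467 and ZNF862 and had a log2 fold change of -1.02. In a window of 2 Mb that holds these 3 ZNF genes, chosen after the values were seen, the table listed 5 features and all were lower, with a median log2 fold change of -1.30. The log2 ratio of CYGB-OE replicate 1 to the mean of the other CYGB-OE libraries had a median of -0.92 there, against -0.18 over chromosome 7. It was -1.07 in ZNF467, -1.09 in SSPO and -0.92 in GIMAP2, but -0.36 in ZNF862 and -0.06 in ZNF775. Without CYGB-OE replicate 1, ZNF467, ZNF862 and ZNF775 stood at -2.75, -1.36 and -1.28, and SSPO and GIMAP2 at -0.74 and -0.92, and all 5 still passed. ZNF862 stood at 141, 131 and 164 in WT and 43.7, 61.4 and 51.8 in CYGB-OE (log2 fold change -1.47, SE 0.21). Of its 50-base windows 25.4% also occur in transcripts of other genes, mainly of an overlapping antisense locus. With TMM over the table only ZNF467 of the 6 kept its call, at -1.84. ZNF853, ZNF277, ZNF775 and ZNF862 were at -0.02, -0.09, -0.10 and -0.27 without a call, and ZNF716 was at 0.19.

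The encoded proteins were described by patterns in the translated GENCODE coding sequences. A KRAB pattern was found in 11 of 29 protein-coding members (37.9%) and in 300 of all 509 ZNF genes (58.9%), and a protein without a match may still carry the domain. On chromosome 19 the shares were 7 of 10 members (70.0%) and 197 of 246 genes (80.1%), and elsewhere 4 of 19 (21.1%) and 103 of 263 (39.2%). The members had a median of 9 finger patterns, from 0 in ZNF862 to 24 in ZNF836, against 11 over the family. Members with a KRAB pattern were higher in 3 and lower in 8, with a median log2 fold change of -1.37, and the other protein-coding members were higher in 4 and lower in 14, with a median of -1.29. The 4 pseudogenes, ZNF826P, ZNF204P, ZNF658B and ZNF883, were higher in 1 and lower in 3. Of a list of 24 chromatin partners of KRAB proteins only UHRF1 was in the table, where it was higher with a log2 fold change of 1.37. TRIM28 and SETDB1 were not listed and were not analysed here.

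Shared sequence limits some of these counts. Of the 33 genes, 23 shared under 10% of their 50-base windows with transcripts of other genes, and 4 shared 20% or more. ZNF658B shared 72.6%, mainly with ZNF658, so its log2 fold change of -1.11 cannot be assigned to it alone. ZNF883 shared 38.3%, mainly with another annotated gene of the same name, and ZNF775 25.6%, mainly with an overlapping locus.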

How the data were processed

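RNA of 3 WT and 3 CYGB-OE libraries was captured on oligo-dT beads and primed with random hexamers, per the labels' protocols, which do not say whether the kit kept strand. The submitters' processing notes name Trimmomatic 0.36, STAR 2.5.2b, featureCounts, Subread 1.5.2 and GRCh38. Per the file headers, the deposited table holds unnormalized read counts, for part of the genes only. Of the 2778 features, 2468 passed filterByExpr with a minimum count of 10 and were fitted with edgeR 4.0.16 in R 4.3.3. The test was the quasi-likelihood F test (two-sided, robust, group as the only term, Benjamini-Hochberg adjustment, threshold 0.05). Library factors were TMM within each group, and the middle of the empty band of log2 ratios, from -1.07 to 0.92, was set to 0. A normalized count is the count over that factor, given as mean ± SD or per library, and standard errors come from the F statistic. Positions, gene types and exon lengths are from GENCODE 29. Windows of 50 bases of each member were looked up in all GENCODE transcripts on both strands. No protein table was used, and finger patterns (C, 2 to 4 residues, C, 12, H, 3 to 5, H) were counted in the translation of coding exons. Named genes were the 8 largest folds each way, the 8 highest levels per kb, the members of a chromosome 19 run and the 2 nearest to 0 on each side; others are named for a stated feature after their values were seen. Alternatives were other scalings, filters and tests (DESeq2 1.42.0, limma 3.58.1), left-out libraries and a replicate block. The members and lists were chosen with earlier results of these data known.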

Additional observations from a re-analysis of the deposited data

How the results depend on the processing

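Scaling mattered most. With TMM over the table, 5 ZNF genes were lower (2 on chromosome 19), the median log2 fold change was -0.09 and 480 features were lower in all. With DESeq2 size factors these values were 5, 2, -0.08 and 476. Total counts gave a median of -0.94. ZNF716, ZNF572, ZNF658B, ZNF883 and ZNF723 turned positive, at 0.19, 0.10, 0.08, 0.05 and 0.01 with TMM and 0.19, 0.11, 0.09, 0.05 and 0.02 with DESeq2 size factors. At a distance of 1000 kb chromosome 19 held 1 run of ZNF genes, against 0 at 250 and 500 kb. Over 15 alternatives, 11 ZNF genes kept call and direction wherever they were tested, 6 higher and 5 lower. No such count was made over all features. Over all features the lower calls went from 1749 to 480 with TMM and 476 with DESeq2 size factors. The higher calls went from 713 to 714 with each, so the split of the 11 is not particular to ZNF genes. Leaving out single libraries ended only the calls of ZNF100 and ZNF251. Limma-voom lost the call of ZNF251. A minimum count of 30 left 26 genes, 6 higher and 20 lower, where 545 of all features were higher and 1395 lower. With the replicate block 8 were higher and 25 lower, with no call changed. Deviations of same-numbered libraries from their group means had correlations of -0.01, -0.07 and 0. With 3 libraries a group in a selected table, these values cannot decide whether same-numbered libraries were prepared together. Depth limits the 8 genes with a mean normalized count under 30.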

Other observations

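ZSCAN5A and ZSCAN18, whose products pair fingers with a SCAN dimerization domain and whose genes lie on chromosome 19, went opposite ways: ZSCAN5A from 196 ± 5.14 to 474 ± 34.7 normalized counts (SD, n = 3 each; log2 fold change 1.27) and ZSCAN18 from 273 ± 22.6 to 58.5 ± 25.4 (log2 fold change -2.23). The pseudogene ZSCAN12P1 was lower at -1.19. ZFP36L2, an RNA-binding protein that destabilizes AU-rich messages, was higher at 3946 ± 546 in WT and 9461 ± 303 in CYGB-OE (log2 fold change 1.26). Of the KLF, SP, EGR, GLI and SNAI genes 3 were listed and all were lower, where 70.9% of all tested features were lower. They were KLF7 at -1.71, SP8 at -1.65 and SNAI2, a repressor of epithelial genes, at -1.48. No ZBTB, ZIK, ZIM or ZXD gene was listed.

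The table held 4 transcripts named as antisense to a ZNF gene, 1 of them (ZNF582-AS1) typed as a lincRNA. All 4 were lower, where 70.9% of all tested features were lower: ZNF710-AS1 at -2.18, ZNF385D-AS1 at -2.18, ZNF252P-AS1 at -1.65 and ZNF582-AS1 at -1.29. Of their partner genes only ZNF385D was in the table.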
